A study of Mus musculus with 12 samples.

Results

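Cdkn1a, Cdkn1b, Ccnd1, Ccnd2, Ccng1, Ccng2, Mdm2, Gadd45a, Gadd45b and Gadd45g are 10 genes of the machinery that stops or paces the cell cycle, and they were followed in bone-marrow-derived macrophages (BMDMs) and livers of mice with and without the TSH receptor in myeloid cells. The genes were found by symbol in a table of read counts per gene, in which each of the 10 was listed once among 55335 rows, and they were selected on the genotype differences seen in these libraries. Their differences between genotypes are therefore given as a description, without a test, and nothing is read from counts of members past a threshold in those comparisons. All 10 passed the filter on low counts in every comparison.

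Tshr f/f mice carry a Tshr gene flanked by loxP sites and served as the control, and Tshr MKO littermates also carry Cre under the Lyz2 promoter, which is active in macrophages, monocytes and neutrophils and not in hepatocytes. BMDMs of male mice aged 6 weeks were differentiated for 7 days with M-CSF at 10 ng/mL and then received TSH at 1 ng/mL for 24 h, with 3 Tshr f/f and 3 Tshr MKO libraries and no library without TSH. Livers came from male mice that started a high-fat diet at 6 weeks of age, stayed on it for 9 weeks and were fasted for 8 h and killed 5 min after insulin (1.5 U/kg), again with 3 libraries per genotype. The study's methods give 3 mice per group.

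A cell that senses DNA damage, nutrient shortage or other stress can halt its division. p21, the product of Cdkn1a, binds cyclin-dependent kinases and blocks the passage from G1 into S phase, and p27, the product of Cdkn1b, acts in the same way. D-type cyclins drive G1 kinases in the opposite sense, and the p53 protein switches on Cdkn1a, Gadd45a, Ccng1 and its own inhibitor Mdm2. The GADD45 proteins are small stress sensors that bind PCNA, p21 and the kinase MEKK4 and so link stress to p38 and JNK signaling. In macrophages p21 is also made during M-CSF-driven maturation, and in liver Cdkn1a responds to injury and Gadd45g to fasting.

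Sequence around the transcription start was taken from RefSeq (GRCm38.p6, the build of the count table), which listed 9 windows for 8 of the 10 genes, each from 250 bases before a start to 50 after it. The 6 windows printed here are those of Cdkn1a, the gene lower in Tshr MKO libraries of both tissues, of Ccng1, a classical p53 target that did not separate the BMDM groups, and of the GADD45 family, whose 3 genes differed in direction. Capitals mark each match on either strand to the box TATAA, the E-box CACGTG, the box CCAAT, the GC box GGGCGG, the forkhead motif GTAAACA, the AP-1 motif TGACTCA, the cyclic AMP element TGACGTCA or the p53 response element, taken as 2 adjoining half-sites with at most 1 mismatch outside the C and G of each core.
Cdkn1a, upstream start, chr17:29090729-29091028, plus strand: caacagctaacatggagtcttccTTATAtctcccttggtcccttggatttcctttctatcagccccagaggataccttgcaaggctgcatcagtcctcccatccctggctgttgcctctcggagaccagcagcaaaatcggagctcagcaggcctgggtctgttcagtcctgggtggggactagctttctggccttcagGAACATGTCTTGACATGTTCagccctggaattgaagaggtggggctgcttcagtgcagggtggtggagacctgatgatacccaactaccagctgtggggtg
Cdkn1a, downstream start, chr17:29093519-29093818, plus strand: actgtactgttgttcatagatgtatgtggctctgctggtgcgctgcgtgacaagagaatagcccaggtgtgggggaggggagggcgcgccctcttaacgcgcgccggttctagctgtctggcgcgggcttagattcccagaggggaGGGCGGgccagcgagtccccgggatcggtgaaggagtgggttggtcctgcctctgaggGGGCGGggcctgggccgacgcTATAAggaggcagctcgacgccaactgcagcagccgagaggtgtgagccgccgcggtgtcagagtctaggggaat
Ccng1, chr11:40755237-40755536, minus strand: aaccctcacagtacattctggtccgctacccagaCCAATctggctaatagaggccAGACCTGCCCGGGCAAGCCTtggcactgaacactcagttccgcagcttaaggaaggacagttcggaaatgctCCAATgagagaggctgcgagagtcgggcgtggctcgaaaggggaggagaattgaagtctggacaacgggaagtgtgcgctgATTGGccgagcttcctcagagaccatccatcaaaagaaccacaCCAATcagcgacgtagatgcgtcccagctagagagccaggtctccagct
Gadd45a, chr6:67037358-67037657, minus strand: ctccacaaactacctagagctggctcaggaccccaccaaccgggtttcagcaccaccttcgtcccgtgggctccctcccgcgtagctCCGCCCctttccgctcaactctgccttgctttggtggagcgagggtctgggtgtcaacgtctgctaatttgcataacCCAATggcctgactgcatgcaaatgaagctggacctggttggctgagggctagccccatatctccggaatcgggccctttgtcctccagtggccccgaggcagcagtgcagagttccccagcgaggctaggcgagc
Gadd45b, chr10:80929841-80930140, plus strand: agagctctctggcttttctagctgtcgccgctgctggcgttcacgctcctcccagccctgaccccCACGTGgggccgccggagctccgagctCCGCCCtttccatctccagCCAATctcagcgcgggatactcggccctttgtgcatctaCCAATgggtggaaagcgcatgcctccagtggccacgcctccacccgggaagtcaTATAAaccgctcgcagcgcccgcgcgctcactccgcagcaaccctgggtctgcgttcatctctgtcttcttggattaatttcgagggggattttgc
Gadd45g, chr13:51846425-51846724, plus strand: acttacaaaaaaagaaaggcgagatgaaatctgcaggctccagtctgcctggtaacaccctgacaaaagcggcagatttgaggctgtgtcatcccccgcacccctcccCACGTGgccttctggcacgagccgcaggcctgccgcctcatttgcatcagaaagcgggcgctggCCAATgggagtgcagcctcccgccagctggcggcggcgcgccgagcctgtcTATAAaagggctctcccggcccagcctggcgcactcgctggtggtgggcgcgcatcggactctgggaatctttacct

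The p53 response element lay 51 to 32 bases before the upstream start of Cdkn1a and 195 to 176 bases before the start of Ccng1. It was found in 22 of 32851 mouse windows of this length (0.067%). The downstream window of Cdkn1a held TATAA 25 to 21 bases before the start and a pair of GGGCGG boxes. Gadd45b and Gadd45g both held CACGTG, which 7.15% of all windows hold, and TATAA close to the start, which 24.9% hold, whereas Gadd45a held neither. CCAAT was found in 37.4% of windows, GGGCGG in 35.7%, TGACTCA in 5.2% and TGACGTCA in 1.79%. Of the windows not printed, that of Mdm2 was the only one among the 9 with GTAAACA, held by 3.65% of windows. These matches describe letters and say nothing about which factors were bound.

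The libraries held 28962878 to 40954211 counts. Tshr had 0 to 5 counts in BMDM libraries and 0 in livers, where 3 counts correspond to 0.0742 to 0.104 CPM (counts scaled to the size of the library), so the counts gave no check of the deletion. BMDM Tshr f/f replicate 3 stood apart, with a TMM normalization factor of 0.738 against 0.993 to 1.114 in the other BMDM libraries, and differences of members that moved with it are also given without it. Differences of other named genes are given only with that library included. BMDMs held the macrophage markers at a summed 12977 to 18624 CPM in Tshr f/f and 22544 to 30369 CPM in Tshr MKO libraries, without overlap (3 of 8 markers lower and 5 higher in Tshr MKO), while dendritic cell markers were at 10.2 to 17.0 CPM in Tshr f/f and 6.96 to 8.88 CPM in Tshr MKO. Of 7 hepatocyte markers 6 had no count in BMDMs, and markers of stellate cells and fibroblasts reached 671 to 2936 CPM there. Livers held hepatocyte markers at 70308 to 106681 CPM, and the mitochondrially encoded share of counts was 5.55 to 6.80% in Tshr f/f and 7.72 to 8.15% in Tshr MKO livers. In Tshr MKO livers 7 macrophage markers were lower and 1 higher, 4 Kupffer cell markers lower and 1 higher, and 7 neutrophil markers lower and 0 higher. The summed CPM of each of these 3 lists overlapped between genotypes. The part of these differences in the results was not tested. In bulk RNA, fewer cells of a type and less RNA per cell cannot be told apart. The labels of the liver libraries and a supplementary table of the study go against each other, because that table lists receptor counts of these livers under the opposite genotype headings. Groups of livers follow the labels throughout, and with interchanged headings each liver difference between genotypes would change its sign.

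In BMDMs the arrest genes Cdkn1a and Gadd45a were the members with the greatest differences between genotypes, lower in Tshr MKO by 6.38-fold and 5.00-fold, and Ccnd2, Ccng2 and Mdm2 were lower by 2.74-, 2.396- and 2.41-fold. Gadd45g was higher by 2.02-fold. In each of these 6 genes the 3 values of one genotype lay above the 3 of the other. Across 15372 genes, the edgeR test called 0 at an adjusted p under 0.05 (0% called), with 1567 lower and 1189 higher at an unadjusted p under 0.05 and 1223 called by DESeq2.

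Cdkn1a (ENSMUSG00000023067, chromosome 17, 29090976 to 29100727, plus strand) was at 229, 140 and 701 CPM in the Tshr f/f libraries and at 57.6, 47.1 and 62.8 CPM in the Tshr MKO libraries. The Tshr MKO libraries lay close together, and the Tshr f/f libraries spread with replicate 3 at the top. The log2 fold change was -2.67 ± 0.61 (SE), and -1.73 without Tshr f/f replicate 3. Cdkn1b, which encodes the related inhibitor p27, had 18.2, 29.98 and 32.7 CPM against 21.7, 19.5 and 26.6 CPM. Its groups overlapped, with a log2 fold change of -0.25 ± 0.25.

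Among the D-type cyclins, Ccnd2 was at 32.4, 26.6 and 62.9 CPM in the Tshr f/f libraries and 16.6, 13.7 and 14.2 CPM in the Tshr MKO libraries. Every Tshr MKO library lay below every Tshr f/f library, with a log2 fold change of -1.45 ± 0.33 and of -0.99 without Tshr f/f replicate 3. Ccnd1 had 19.3, 5.38 and 8.63 CPM against 20.6, 21.4 and 8.86 CPM, and libraries of both genotypes were found at either end of the range. Ccnd1 overlaps LTO1 on the other strand, which had 4928 counts over the 12 libraries. The strand setting of the counting is not given in the sources used here, and other-strand genes also overlap Cdkn1a (31 counts over the 12 libraries) and Ccnd2 (26 counts).

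The G-type cyclins, which act in arrest and bind protein phosphatase 2A subunits, parted. Ccng2, a FoxO target, had 27.4, 20.4 and 59.6 CPM in Tshr f/f and 13.4, 13.03 and 18.3 CPM in Tshr MKO BMDMs. These groups did not overlap, and the log2 fold change of -1.26 ± 0.41 became -0.68 without Tshr f/f replicate 3. Ccng1, whose window holds the p53 element printed above, had 104, 138 and 78.1 CPM against 106, 101.5 and 108 CPM. All Tshr MKO values of Ccng1 lay within the Tshr f/f range, and the sign of its log2 fold change of -0.02 ± 0.22 differed in 6 of 14 alternative settings. Mdm2, the ubiquitin ligase that removes p53, had 262, 189 and 590 CPM against 140, 138 and 154 CPM. Its groups were apart, and the log2 fold change of -1.27 ± 0.42 became -0.65 without Tshr f/f replicate 3.

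The 3 GADD45 genes differed in direction in BMDMs. Gadd45a had 64.5, 27.2 and 128 CPM in Tshr f/f and 15.1, 15.3 and 13.6 CPM in Tshr MKO BMDMs. The log2 fold change was -2.32 ± 0.53, and -1.65 without Tshr f/f replicate 3. Gadd45b, an NF-κB target, had 40.9, 15.6 and 176 CPM against 44.2, 44.6 and 39.7 CPM. The Tshr MKO values of Gadd45b sat inside the Tshr f/f range, and the log2 fold change of -0.86 ± 0.80 turned to 0.60 without Tshr f/f replicate 3. Gadd45g had 7.40, 9.36 and 5.76 CPM against 15.9, 14.8 and 14.9 CPM. It was the member with a higher level in each Tshr MKO library than in any Tshr f/f library, at a log2 fold change of 1.02 ± 0.21 and of 0.86 without Tshr f/f replicate 3.

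Of the 10 members, 5 were lower with separate groups, where 14% of all genes were, and 1 was higher with separate groups, where 14.8% were. At an unadjusted p under 0.05 the same counts were 5 lower (10.2% of all genes) and 1 higher (7.73%). Because the members were proposed from this contrast, nothing is read from these counts. The median log2 fold change was -1.06 over the members and 0.01 over all genes.

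**Figure D1:**
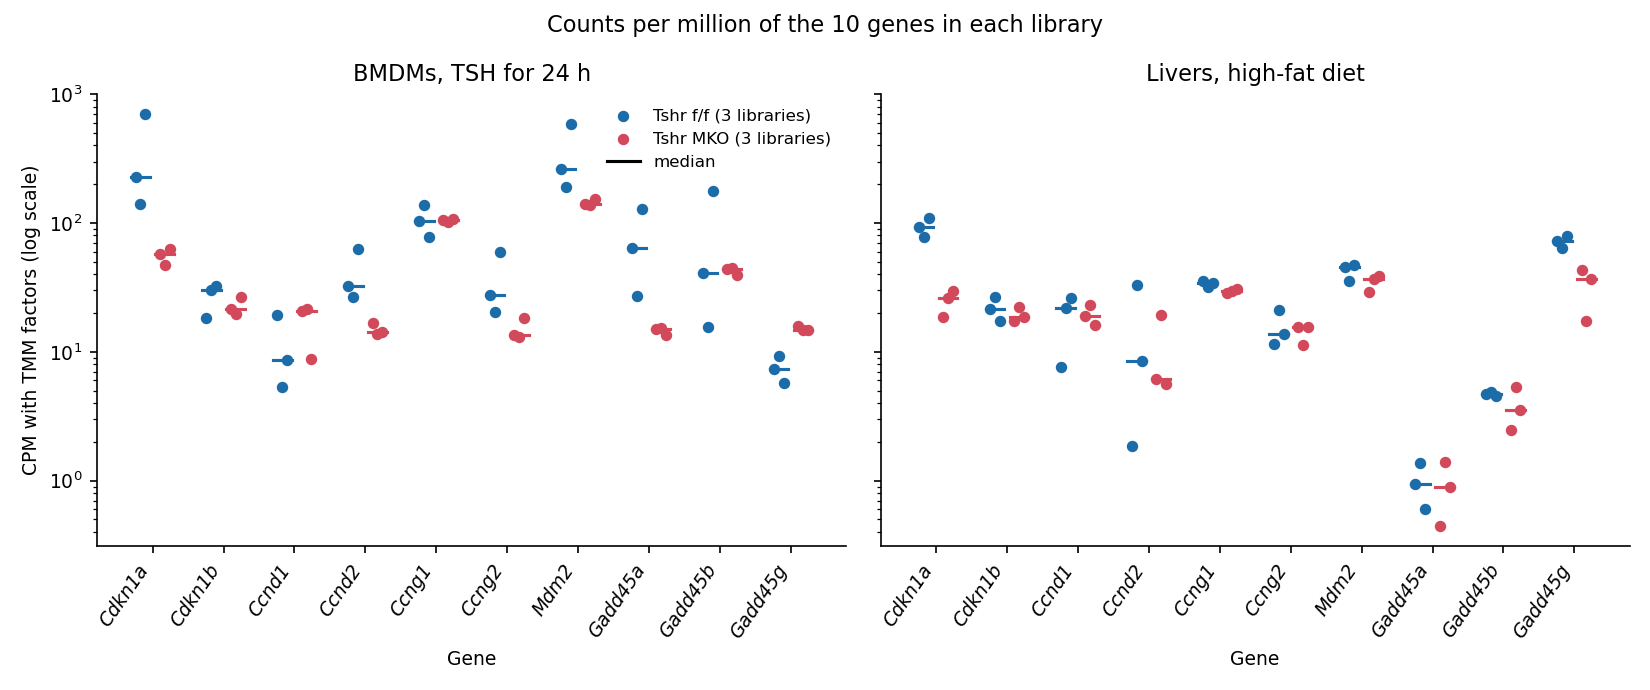
CPM with TMM factors of the 10 genes on a log scale, with 1 point per library (blue, Tshr f/f; red, Tshr MKO) and a line at the median, in BMDMs (left) and livers (right). In BMDMs the Tshr MKO points of Cdkn1a lie at 47.1 to 62.8 CPM, all below the 140 CPM of the lowest Tshr f/f library, and in livers those of Gadd45g lie at 17.2 to 43.4 CPM, all below 63.6 CPM.

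In livers Cdkn1a was again lower in Tshr MKO than in Tshr f/f libraries, by 3.77-fold, and Gadd45g was lower by 2.22-fold. Ccng1 was lower by 1.14-fold with separate groups, and the groups of the other 7 members overlapped. Of 15062 genes in the edgeR test, 0 passed an adjusted p of 0.05 (0% called), with 780 lower and 794 higher at an unadjusted p under 0.05 and 269 called by DESeq2.

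Cdkn1a had 93.6, 78.3 and 110 CPM in Tshr f/f livers and 18.6, 26.4 and 29.9 CPM in Tshr MKO livers. The gap between the groups was wider than the spread within either of them. The log2 fold change was -1.92 ± 0.21 and stayed between -2.06 and -1.75 with any 1 library left out. Cdkn1b had 21.7, 26.4 and 17.3 CPM against 17.2, 22.4 and 18.6 CPM, and its groups overlapped (log2 fold change -0.17 ± 0.18).

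The D-type cyclins varied widely between livers of one genotype. Ccnd2 had 1.86, 33.0 and 8.42 CPM in Tshr f/f livers and 6.17, 19.3 and 5.66 CPM in Tshr MKO livers, with replicate 2 the highest of each genotype. Its log2 fold change of -0.48 ± 0.97 turned to 1.01 without Tshr f/f replicate 2. In the same libraries the summed stellate cell and fibroblast markers were 24.4, 250 and 143 CPM in Tshr f/f and 146, 150 and 90.2 CPM in Tshr MKO livers, and their part in the Ccnd2 values was not tested. Ccnd1 had 7.58, 21.9 and 26.0 CPM against 19.1, 23.2 and 16.2 CPM, with Tshr f/f replicate 1 the lowest of the 6 livers.

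Ccng1 had 35.3, 32.1 and 34.3 CPM in Tshr f/f and 28.6, 29.9 and 31.0 CPM in Tshr MKO livers. The groups were close but did not overlap, at a log2 fold change of -0.18 ± 0.09. Ccng2 had 11.5, 21.3 and 13.8 CPM against 15.6, 11.3 and 15.5 CPM, with a log2 fold change of -0.14 ± 0.25 that turned to 0.16 without Tshr f/f replicate 2. Mdm2 had 45.7, 35.3 and 47.1 CPM against 28.96, 36.9 and 38.8 CPM, and Tshr f/f replicate 2 lay among the Tshr MKO values (log2 fold change -0.29 ± 0.16).

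Gadd45g was the abundant GADD45 gene of liver, with 72.5, 63.6 and 78.8 CPM in Tshr f/f and 43.4, 17.2 and 36.4 CPM in Tshr MKO livers. All Tshr MKO livers lay below all Tshr f/f livers, with a log2 fold change of -1.15 ± 0.32 and a range of -1.43 to -0.86 over the libraries left out. Gadd45b had 4.70, 4.90 and 4.54 CPM against 2.46, 5.33 and 3.54 CPM, and its groups overlapped. Gadd45a was at 0.947, 1.38 and 0.597 CPM against 0.447, 1.40 and 0.884 CPM, from only 16 to 59 counts per library, too few to tell a modest difference from the spread. Gadd45a is overlapped on the other strand by E230016M11Rik, which had 507 counts over the 12 libraries.

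In livers 3 members were lower with separate groups, where 7.74% of all genes were, and 2 were lower at an unadjusted p under 0.05 (5.18% of all genes), with 0 higher (5.27%). The median log2 fold change was -0.24 over the members and -0.01 over all genes. As in BMDMs, these counts describe how the members were proposed.

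**Figure D2:**
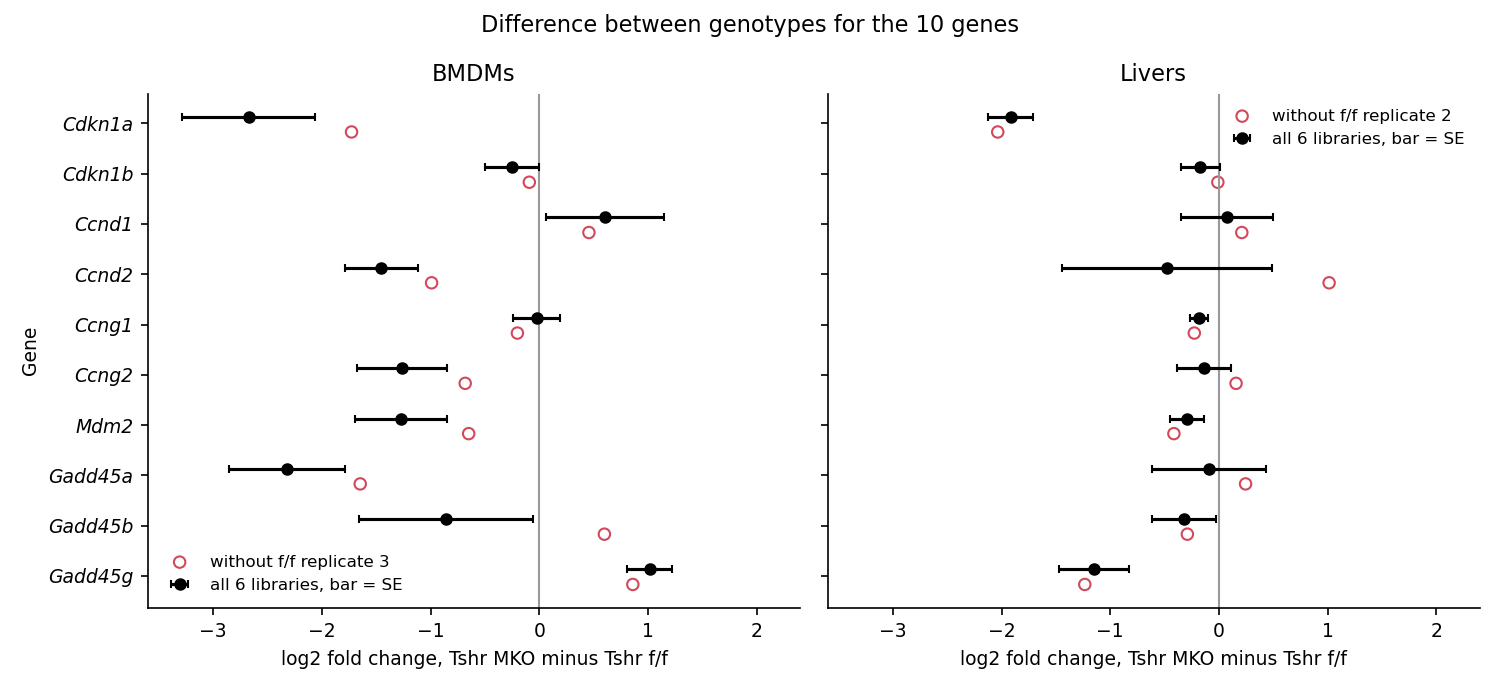
Log2 fold changes of the 10 genes, Tshr MKO minus Tshr f/f, in BMDMs (left) and livers (right), as black points with bars of 1 SE. Open circles give the value without BMDM Tshr f/f replicate 3 or without liver Tshr f/f replicate 2, which moves Cdkn1a in BMDMs from -2.67 to -1.73, Gadd45b in BMDMs from -0.86 to 0.60 and Ccnd2 in livers from -0.48 to 1.01.

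The difference between the genotype effects of the 2 tissues was estimated in a fit of all 12 libraries, and for the members it is a description because it is built from the contrasts they were proposed from. Of 17246 genes, 1 had an adjusted p under 0.05 (0.0058% called), namely Gprc5c, an orphan receptor gene picked out after its values were seen. Gadd45g had an interaction of -2.16 ± 0.40 on the log2 scale, higher in Tshr MKO BMDMs and lower in Tshr MKO livers. Gadd45a had one of 2.24 ± 0.78, lower in Tshr MKO BMDMs and near equal in livers at its low counts, which became 1.55 without BMDM Tshr f/f replicate 3. Cdkn1a, lower in Tshr MKO libraries of both tissues, had one of 0.76 ± 0.67, which became -0.20 without BMDM Tshr f/f replicate 3. At an unadjusted p under 0.05, 1 member had a negative interaction (7.12% of all genes) and 1 a positive one (7.42%).

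The make-up of the GADD45 family was compared on CPM per kb of exon, which allows levels of different genes to be set side by side. In Tshr f/f BMDMs Gadd45a held 46.1 ± 7.38% (SD, n = 3) of the family's summed level, Gadd45b 42.0 ± 15.2% and Gadd45g 11.95 ± 10.98%. In Tshr MKO BMDMs the shares were 17.2 ± 0.29%, 55.9 ± 0.96% and 26.9 ± 1.26%. The share of Gadd45a lay between 38.5 and 53.3% in the Tshr f/f libraries and between 17.0 and 17.5% in the Tshr MKO libraries, without overlap. Without replicate 3 the mean shares in Tshr f/f BMDMs were 49.9% for Gadd45a, 33.5% for Gadd45b and 16.6% for Gadd45g. In livers Gadd45g held 94.5 ± 1.07% in Tshr f/f and 88.4 ± 9.21% in Tshr MKO libraries, the latter from 78.0 to 95.4%, so that the groups overlapped.

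**Figure D3:**
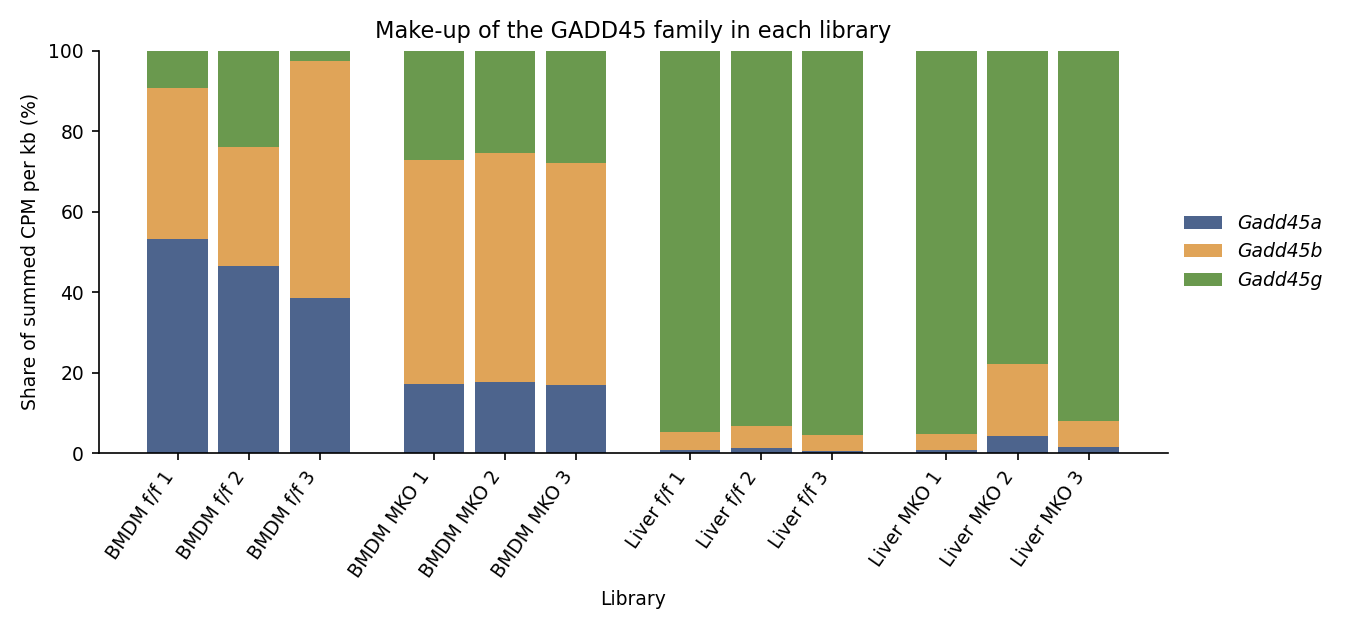
Share of Gadd45a (blue), Gadd45b (orange) and Gadd45g (green) in the summed CPM per kb of the 3 genes, in percent, with 1 stacked bar for each of the 12 libraries. Gadd45a lies between 17.0 and 17.5% in the Tshr MKO BMDMs against 38.5 to 53.3% in the Tshr f/f BMDMs, and Gadd45g holds 78.0% or more of the family in every liver.

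The order of the 10 genes by CPM per kb, scaled within each tissue, was unlike in the 4 groups. In Tshr f/f BMDMs the mean level was 100.4 ± 84.9 CPM per kb (SD, n = 3) for Cdkn1a, 68.3 ± 42.0 for Mdm2, 48.8 ± 54.4 for Gadd45b and 41.5 ± 28.9 for Gadd45a, and the ranges of these neighbours overlapped. Without replicate 3 the means were 51.9 for Cdkn1a, 44.4 for Mdm2, 34.4 for Ccng1, 26.0 for Gadd45a and 17.8 for Gadd45b. By these means Ccng1 stood above Gadd45a and Gadd45b, although in replicate 1 Gadd45a (36.6) was above Ccng1 (29.7). In Tshr MKO BMDMs Ccng1 (29.9 ± 0.92), Mdm2 (28.3 ± 1.67) and Gadd45b (27.0 ± 1.72) led with overlapping ranges, and Cdkn1a followed at 15.7 ± 2.25, below all values of Gadd45b. In Tshr f/f livers Gadd45g led with 61.1 ± 6.51 CPM per kb, Cdkn1a followed at 26.5 ± 4.48 and Ccng1 at 9.65 ± 0.47, each range lying below the one before. In Tshr MKO livers Gadd45g led with 27.6 ± 11.6, and Ccng1 (8.49 ± 0.33), Cdkn1a (7.02 ± 1.63) and Mdm2 (6.86 ± 1.03) followed with overlapping ranges. At the foot of the order were Ccnd1 in Tshr f/f BMDMs, Ccnd2 in Tshr MKO BMDMs and Gadd45a in both groups of livers.

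Levels in Tshr f/f livers were then tested against those in Tshr f/f BMDMs, a contrast other than those the members were selected on. It shares the Tshr f/f libraries with the genotype comparisons, so its p-values for the members are not independent of that choice, and tissue, culture, diet, TSH and insulin differ together in it and cannot be told apart. Of 15931 genes, 29.6% were lower and 33.8% higher in livers at an adjusted p under 0.05. Of the 10 members, 4 were lower and 1 was higher, a share no higher than the 63.4% of all genes. CPM in this comparison are scaled jointly over the 6 libraries and differ from those above.

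Gadd45a showed the largest difference among the members, with 45.8, 19.1 and 90.6 CPM in BMDMs and 1.22, 1.82 and 0.787 CPM in livers (log2 fold change -5.33 ± 0.70, edgeR adjusted p = 0.00099), and a log2 fold change of -4.67 without BMDM replicate 3. Gadd45g went the other way, with 5.26, 6.56 and 4.07 CPM in BMDMs and 93.5, 84.1 and 104 CPM in livers (log2 fold change 4.14 ± 0.23, edgeR adjusted p = 4.36e-05). The 2 genes thus exchanged places between the tissues, with no overlap in either. Gadd45b had 29.1, 10.9 and 125 CPM in BMDMs and 6.06, 6.49 and 5.99 CPM in livers (log2 fold change -3.15 ± 0.88, edgeR adjusted p = 0.0199). Its difference was -1.71 without BMDM replicate 3 (edgeR adjusted p = 0.017) and no longer passed without any 1 of the livers (edgeR adjusted p = 0.0591 to 0.0696).

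Mdm2 was lower in livers, with 186, 132 and 417 CPM in BMDMs and 58.9, 46.7 and 62.1 CPM in livers (log2 fold change -2.13 ± 0.45, edgeR adjusted p = 0.00685). Without BMDM replicate 3 its difference was -1.53 (edgeR adjusted p = 0.00253). Ccng1 had 74.1, 96.5 and 55.2 CPM in BMDMs and 45.5, 42.4 and 45.2 CPM in livers (log2 fold change -0.76 ± 0.22, edgeR adjusted p = 0.0227). That call was lost without BMDM replicate 1 (edgeR adjusted p = 0.0552), without any 1 of the livers (0.0619 to 0.0718) and with the replicate block (0.0575). With that block 3 members passed, against 5 in the main fit. Cdkn1a had 163, 97.9 and 496 CPM in BMDMs and 121, 104 and 145 CPM in livers, with overlapping ranges. Its log2 fold change of -1.03 ± 0.60 (edgeR adjusted p = 0.172) was -0.10 without BMDM replicate 3. It passed the test without BMDM replicate 2 at -1.43 and with library totals alone at -1.69 (edgeR adjusted p = 0.015). Ccnd1, Cdkn1b, Ccnd2 and Ccng2 did not pass, at log2 fold changes of 1.63 ± 0.63, 0.59 ± 0.27, -0.59 ± 0.94 and -0.31 ± 0.45 (edgeR adjusted p = 0.0616, 0.101, 0.608 and 0.573). Ccnd1 did pass without BMDM replicate 1 (2.30, edgeR adjusted p = 0.0267), without liver replicate 1 (2.01, edgeR adjusted p = 0.0282), with DESeq2 (adjusted p = 0.0189) and with all 12 libraries in a fit (edgeR adjusted p = 0.0228). Cdkn1b passed with all 12 libraries in a fit (edgeR adjusted p = 0.0481), and Ccnd2 was at -2.08 without liver replicate 2 (edgeR adjusted p = 0.0642).

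**Figure D4:**
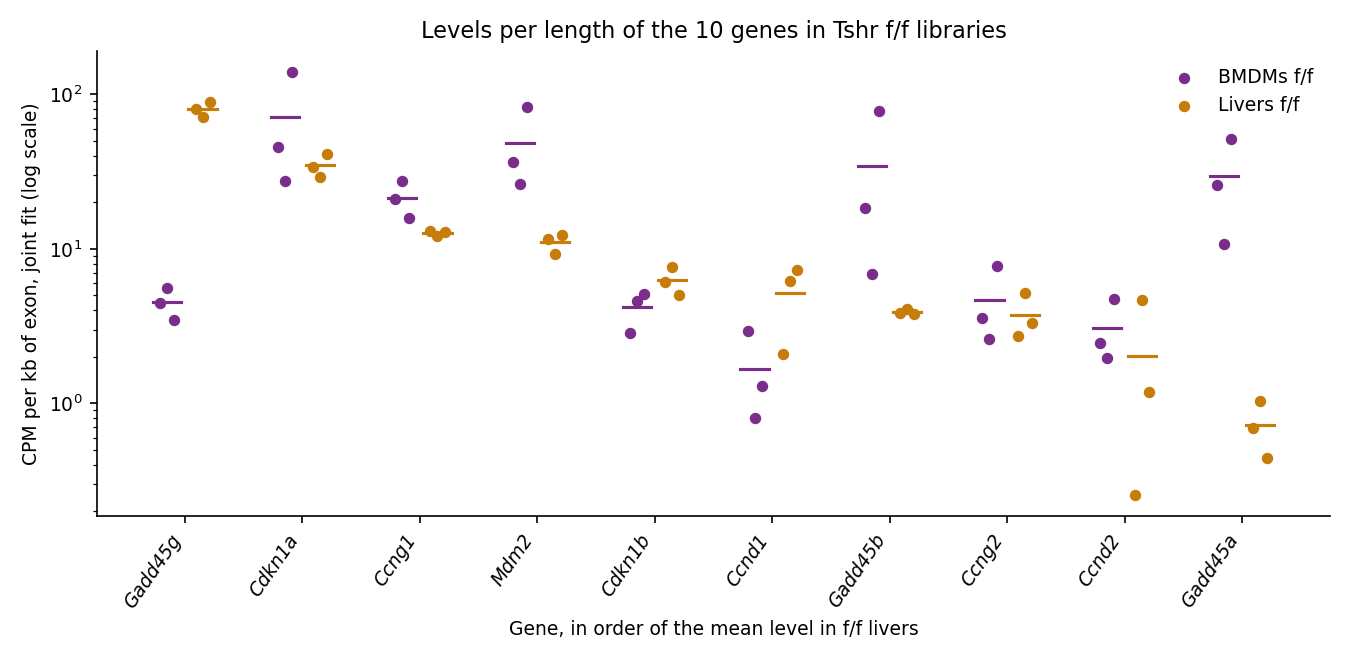
CPM per kb of exon of the 10 genes in Tshr f/f BMDMs (purple) and Tshr f/f livers (orange), scaled jointly and drawn on a log scale, with 1 point per library and a line at the mean. Gadd45g stands at 80.0 CPM per kb in livers against 4.52 in BMDMs, and Gadd45a at 0.724 against 29.4.

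Other genes of the pathway came from 7 lists that were written with results of these data known, and in the genotype comparisons 0 of their genes passed an adjusted p of 0.05. Among 6 further CDK inhibitors in BMDMs 3 were lower and 3 higher, with Cdkn1c (p57) at 0.753, 0.687 and 0.384 CPM in Tshr f/f and 2.61, 2.27 and 0.722 CPM in Tshr MKO BMDMs, and Cdkn2c at a log2 fold change of 0.67 ± 0.31. In livers 3 of the 6 were tested, and Cdkn2d and Cdkn2c were at -0.40 ± 0.28 and 0.09 ± 0.30. Of 18 G1 cyclins, kinases and pocket proteins, 9 were lower and 9 higher in BMDMs and 10 lower and 8 higher in livers. Skp2, the ubiquitin ligase subunit that removes p27, was at 0.99 ± 0.26 and Rbl1, which encodes p107, at -0.85 ± 0.25 in BMDMs, both with separate groups. In livers Myc was at -0.86 ± 0.31 and Cdc25a, a phosphatase that activates CDKs, at -0.55 ± 0.21, both with all Tshr MKO values below the Tshr f/f values.

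Of 9 tested genes for p53 and its regulators, 4 were lower and 5 higher in either tissue. Mdm4, the partner of Mdm2, had 41.8, 43.3 and 40.0 CPM in Tshr f/f and 54.1, 59.2 and 53.5 CPM in Tshr MKO livers, and Trp53bp1 was at 0.53 ± 0.11 there. In BMDMs Chek2 was at 1.08 ± 0.55 and Mdm4 at -0.31 ± 0.18. Of 27 p53 targets outside the members, 15 were lower and 12 higher in BMDMs, and 23 were lower and 4 higher in livers, where 50.9% of all genes were lower. Their median log2 fold change was -0.26 in both tissues. At an unadjusted p under 0.05, 6 were lower (10.2% of all genes) and 2 higher (7.73%) in BMDMs, and 4 were lower in livers (5.18%).

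The 2 p53 targets with the lowest p were not the same genes in the 2 tissues. Fas, a death receptor, had 35.2, 27.6 and 55.6 CPM in Tshr f/f and 7.33, 7.78 and 11.9 CPM in Tshr MKO BMDMs (log2 fold change -2.13 ± 0.33). Sesn1, which encodes the stress protein sestrin 1, had 27.0, 17.0 and 3.88 CPM against 81.8, 69.2 and 66.0 CPM (2.17 ± 0.62). Both p53 targets separated the BMDM groups, in opposite directions, and Tshr f/f replicate 3 was the highest library for Fas and the lowest for Sesn1. In livers Gdf15, a stress-induced hormone, had 12.99, 11.05 and 8.72 CPM against 3.18, 5.09 and 4.95 CPM (-1.31 ± 0.24), and the kinase gene Plk3 was at -1.05 ± 0.29. Plk3 was also lower in BMDMs (-1.20 ± 0.46), with 20.7, 19.48 and 48.0 CPM in Tshr f/f and 9.66, 9.20 and 19.41 CPM in Tshr MKO. Its groups there were separate only narrowly, and Tshr f/f replicate 3 was the highest library. Gdf15 was at -2.47 ± 1.18 in BMDMs with overlapping groups. Fas and Sesn1 were at -0.01 ± 0.19 and -0.26 ± 0.19 in livers, with overlapping groups.

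FoxO transcription factors and their targets counted 6 lower and 14 higher of 20 in BMDMs and 14 lower and 8 higher of 22 in livers. Over all genes 49.2% were lower in BMDMs and 50.9% in livers. In BMDMs 2 of the list were lower (10.2% of all genes) and 1 higher (7.73%) at an unadjusted p under 0.05. By the same rule 3 were lower (5.18%) and 0 higher (5.27%) in livers. Bcl2l11, which encodes the death protein BIM, had 56.9, 56.1 and 67.6 CPM in Tshr f/f and 115, 100.4 and 126 CPM in Tshr MKO BMDMs, and 7.20, 8.46 and 8.36 CPM against 4.27, 4.81 and 3.04 CPM in livers. It separated the genotypes in both tissues, higher in Tshr MKO BMDMs and lower in Tshr MKO livers. Sod2, the mitochondrial superoxide dismutase, had 1017, 727 and 2485 CPM in Tshr f/f and 241, 259 and 350 CPM in Tshr MKO BMDMs (-2.31 ± 0.50), and Sgk1 was at -1.04 ± 0.22 in livers. Of 11 GADD45 partners, 5 were lower and 6 higher in BMDMs and 6 lower and 5 higher in livers. Mapk8, which encodes JNK1, was at -0.98 ± 0.42 and Map2k6 at 0.88 ± 0.41 in BMDMs, with overlapping groups. In livers Gadd45gip1, whose product binds GADD45 proteins, was at 0.30 ± 0.09 and Cdk1 at 1.14 ± 0.55.

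Genes of S phase and mitosis had small median differences between genotypes in both tissues. In BMDMs 9 of 27 were lower and 18 higher in Tshr MKO libraries, and the median log2 fold change was 0.13. At an unadjusted p under 0.05, 1 was lower (10.2% of all genes) and 1 higher (7.73%). Mki67, the proliferation marker, had 255, 149 and 600 CPM in Tshr f/f and 111, 136 and 175 CPM in Tshr MKO BMDMs, which overlapped, and Cenpa, a centromere histone, was at 0.57 ± 0.20. In livers 14 of 26 were lower and 12 higher, with Mcm7 at -0.37 ± 0.11 and Cdc20 at 1.29 ± 0.59. Between tissues the list differed, with 24 of 27 genes lower in Tshr f/f livers than in Tshr f/f BMDMs at an edgeR adjusted p under 0.05 and a median log2 fold change of -2.81, against 0.05 over all genes.

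**Figure D5:**
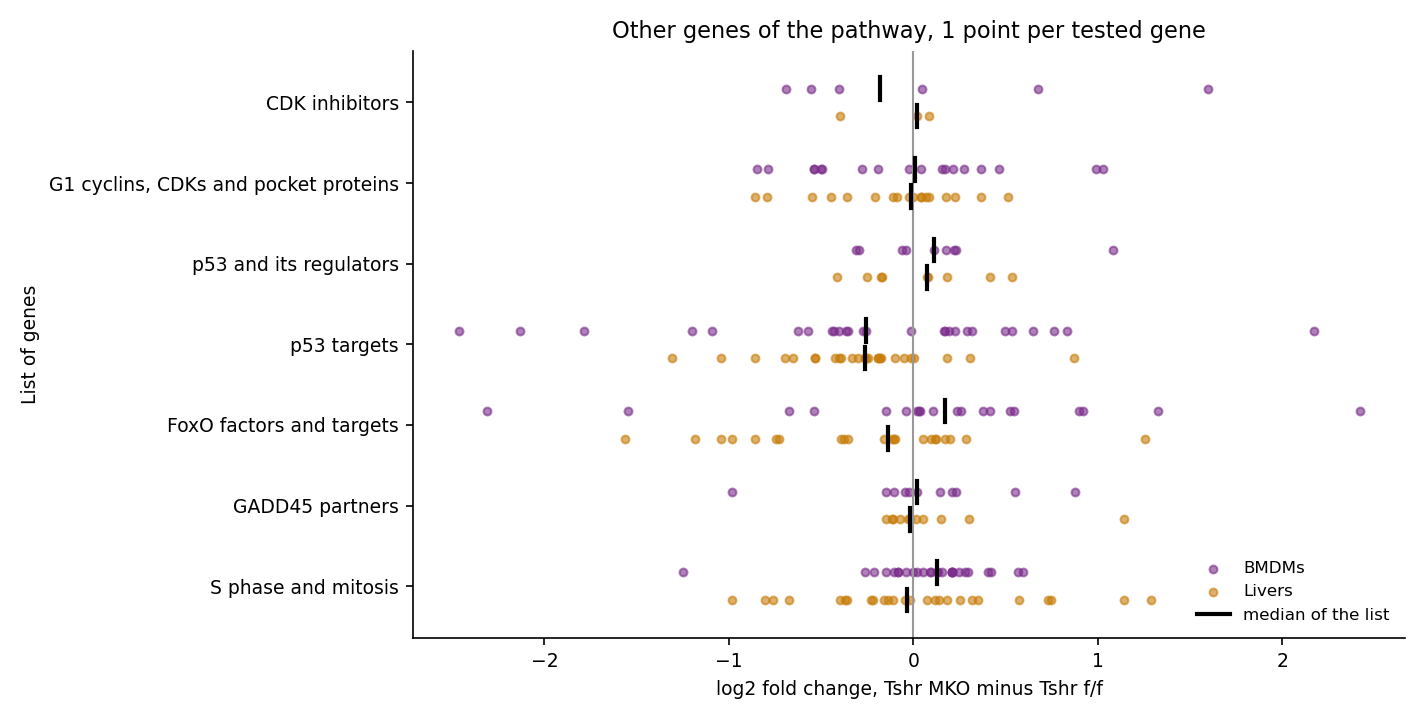
Log2 fold changes, Tshr MKO minus Tshr f/f, of the tested genes of 7 lists, with 1 point per gene (purple, BMDMs; orange, livers) and a black line at the median of each list. The p53 targets have a median of -0.26 in both tissues, and the S phase and mitosis genes 0.13 in BMDMs and -0.03 in livers.

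Genes whose level followed that of Cdkn1a were sought among genes with a mean log2 CPM of at least 1, by the root-mean-square distance of log2 CPM centred over the 6 libraries of a tissue. Among 12140 genes in BMDMs the nearest were Foxp4 (0.135), a forkhead repressor, Mfsd7a (0.163) and Tnip1 (0.182), an inhibitor of NF-κB signaling, and Gadd45a ranked 18 (0.300). Foxp4 had 111, 63.6 and 354 CPM in Tshr f/f and 21.6, 21.2 and 30.3 CPM in Tshr MKO BMDMs, so that it too was highest in Tshr f/f replicate 3. Tnip1 had 279, 171 and 1038 CPM against 80.0, 83.5 and 85.8 CPM. Among 11778 genes in livers the nearest were Sik1 (0.317), a kinase gene induced by cAMP, Slc25a25 (0.357), a mitochondrial carrier, and Dusp1 (0.373), a phosphatase that inactivates MAP kinases, and Gadd45g ranked 75 (0.623). Sik1 had 45.4, 34.6 and 84.1 CPM in Tshr f/f and 11.4, 12.7 and 11.5 CPM in Tshr MKO livers, and Dusp1 141, 179 and 166 CPM against 54.3, 49.3 and 41.9 CPM. These distances rest on 6 libraries that share the difference between genotypes, and they are a description.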

How the data were processed

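Strand-specific libraries were sequenced on a NovaSeq instrument, and the authors deposited raw counts of reads per gene for 12 libraries. The submitters' processing notes name FastQC 0.11.2, STAR, StringTie and mm10, without their order, and the counting program is not given in the sources used here. Of 55335 rows, 55154 are in GENCODE M21. Reads are not molecules, so the floor of 3 counts covers counting error only.

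Genes were tested with edgeR 4.0.16 (R 4.3.3, quasi-likelihood, robust, TMM factors, filterByExpr) with Benjamini-Hochberg adjustment over all genes of a comparison, at an adjusted p under 0.05. The SE is the log2 fold change over the square root of F. CPM carry TMM factors, and CPM per kb were divided by the merged exon length. Tables were built in python 3.11.15 (pandas 2.3.3, numpy 2.4.6), and plots in matplotlib 3.10.9. The study used the MARS model of DEGseq, which was not used here.

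The members, the lists and the tests were chosen with earlier results of these data known. Genes named were the 10 members, Tshr, the 3 genes nearest to Cdkn1a in each tissue and the 2 of each list with the lowest p in a genotype comparison. Gprc5c and the genes overlapping a member were named after their values were seen. Alternatives were RLE, upper-quartile or no scaling factors, a filter at a mean of 50 counts or none, DESeq2 1.42.0, replicate number as a block, all 12 libraries in a fit, the ID letter as a covariate in livers and each library left out. On simulated counts with 200 changed genes, edgeR called 64% of 4-fold and 7% of 2-fold changes in BMDMs and 88% and 40% in livers, with 8.97% and 6.57% of calls false, against 32.5% and 20.8% with DESeq2. Those counts were drawn with the dispersions and TMM factors that edgeR estimated, so the shares cannot be taken as those of the real calls of either tool. Tshr MKO BMDM replicates 1 and 2 differed least (chi-square of 12.3 per degree of freedom) but by more than sampling noise, and were kept apart.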

Additional observations from a re-analysis of the deposited data

Results flagged for a closer look

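Gadd45g was the member whose genotype difference ran in opposite directions in the 2 tissues, with every Tshr MKO BMDM library above every Tshr f/f one and every Tshr MKO liver below every Tshr f/f one. The liver difference minus the BMDM difference was -2.16 on the log2 scale (SE 0.40), from a log2 fold change of 1.02 in BMDMs and -1.15 in livers. In the left-out fits the term lay between -2.45 and -1.87. The member was selected with both genotype differences in view, so the term is given as a description, without a p-value, and with the interchanged liver headings of the study's supplementary table the 2 tissues would share a direction.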

How the results depend on the processing

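The 6 members of BMDMs and the 3 of livers whose groups did not overlap kept the sign of their difference in every alternative run. With separate groups, leaving out 1 library could hardly reverse a sign, so those runs are no check of the direction. Counts of all genes called moved. In BMDMs 0 became 1223 with DESeq2, 150 with all 12 libraries in a fit, 1 with the replicate block and 0 to 13 with a library left out (13 without Tshr f/f replicate 2). In livers 0 became 269 with DESeq2, 1 without the filter and 0 to 7 with a library left out (7 without Tshr f/f replicate 2). The interaction count of 1 became 3 with upper-quartile factors, 2 with library totals, 771 with DESeq2, 0 with the replicate block and 0 to 341 with a library left out (341 without BMDM Tshr f/f replicate 2). Members called between tissues went from 5 to 3 with the replicate block, 6 with DESeq2 or library totals, 7 with all 12 libraries in a fit and from 3 (without liver Tshr f/f replicate 2 or 3) to 6 with a library left out. Deviations of same-numbered libraries from their group means had correlations of 0.03 to 0.14 in BMDMs and -0.07 to 0.25 in livers. With 3 libraries per group these cannot exclude a pairing, and the main fits treated the libraries as unpaired.

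Directions reversed between tissues for Cdkn1b with library totals (-0.22) and Ccng2 without BMDM Tshr f/f replicate 3 (0.25, with -0.61 at the other end of the left-out range). The interaction reversed without that replicate for Cdkn1a (-0.20, other end 1.15), Ccng1 (0.0094, other end -0.38) and Gadd45b (-0.92, other end 1.04), for Gadd45b with the replicate block (-0.23), and for Cdkn1b with library totals (-0.074) and in a range of -0.084 to 0.300 with a library left out (-0.0182 without Tshr MKO BMDM replicate 2, -0.0543 without liver Tshr f/f replicate 3, -0.0506 without liver Tshr MKO replicate 2). The cause was not tested. With library totals the median of all genes shifted by -0.83 between tissues and 0.17 in BMDMs, and 69.4% of tissue calls were lower against 46.7%. Gadd45a in livers rested on 16 to 59 counts per library.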
